A study of Mus musculus with 4 samples.

Results

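Aplnr and Apln encode the apelin receptor and the apelin peptide, and with Apela, the gene of a further peptide for the same receptor, they form the apelin system. They were chosen by gene name, with the fall of the Aplnr transcript between 8 weeks and 12 months known beforehand. Of the 3 names, 2 stand on an entry of the table of 28723 mouse genes, Aplnr (ENSMUSG00000044338) and Apln (ENSMUSG00000037010), and Apela is not analysed here. Both genes passed the minimum level used for testing. Poly(A) RNA of hearts was sequenced in 4 libraries. The aged libraries, titled FLOX5 and FLOX6 and called aged 1 and aged 2 here, came from mice kept to 12 months. The young libraries, titled C4 and C5 and called young 1 and young 2, came from mice kept to 8 weeks. All 4 are labelled C57BL/6J, genotype WT, with no treatment, and the animals lived in a specific-pathogen-free facility. The titles of the aged libraries carry the word FLOX, which the labels do not explain, while their genotype label is WT. The labels enter age in a field called batch, so age, title and batch cannot be told apart. They do not say whether the libraries are from separate animals, so a p-value here covers only the spread from library to library, which may be technical.

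The apelin receptor, also called APJ, is a G-protein-coupled receptor related in sequence to the angiotensin II receptor type 1. It couples mainly to inhibitory G proteins and recruits arrestins. In the heart the receptor is found mainly on endothelial cells, and apelin is made by endothelial and muscle cells as a precursor that is cut to short active peptides. Apelin raises contractility, relaxes vessels through endothelial nitric oxide and takes part in vessel growth, and in mice Aplnr marks venous and capillary endothelium and the coronary vessels that grow from the sinus venosus.

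Aplnr lies at chr2:85136225-85139923 on the plus strand of GRCm38, and its transcript of 3699 bases is 1 exon that holds a coding sequence of 1134 bases for 377 residues. Apln lies at chrX:48025146-48034853 on the minus strand, with a transcript of 3149 bases in 3 exons, 2 of which hold coding sequence. Its coding sequence of 234 bases gives 77 residues, and the last 13 residues are the active peptide apelin-13. No other gene of the table overlaps either one. The coding sequence of Apln and the first 300 bases of that of Aplnr, its amino-terminal part, are shown because they belong to the ligand and the receptor that the values describe. Both are from the GENCODE transcripts of GRCm38, 5′ to 3′. Capitals mark the 39 bases that encode apelin-13 in Apln, and the start codon in Aplnr.
Apln: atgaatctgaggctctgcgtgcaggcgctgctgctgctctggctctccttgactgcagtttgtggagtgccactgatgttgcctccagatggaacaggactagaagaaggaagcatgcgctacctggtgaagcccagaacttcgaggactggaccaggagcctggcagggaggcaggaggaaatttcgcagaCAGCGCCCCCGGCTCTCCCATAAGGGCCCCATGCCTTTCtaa
Aplnr: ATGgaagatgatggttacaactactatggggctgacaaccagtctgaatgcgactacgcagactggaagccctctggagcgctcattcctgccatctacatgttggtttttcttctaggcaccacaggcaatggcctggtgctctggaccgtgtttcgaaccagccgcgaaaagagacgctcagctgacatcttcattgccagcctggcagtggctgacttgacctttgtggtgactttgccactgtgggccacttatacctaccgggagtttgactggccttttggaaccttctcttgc

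The libraries held 51328364 to 55411355 estimated counts in aged hearts and 52866260 to 63828074 in young hearts. FPKM sets the fragments of a gene against the length of its transcript and the size of the library. Genes with a mean of at least 1 FPKM over the 4 libraries were tested, 12027 in all, with edgeR's quasi-likelihood test, and genes were called where the p, adjusted after Benjamini and Hochberg, was under 0.05. Of the tested genes 2416 (20.1%) were called higher and 2104 (17.5%) lower in aged hearts, 37.6% in all. With FPKM rescaled to one sum the split was 3797 higher and 1095 lower, and the median of all genes moved to 0.16 from 0.01 on the log2 scale. Here and below that setting is limma on log2(FPKM + 1) after rescaling, so the test and the input differ as well as the scaling. Limma on log2(FPKM + 1) without rescaling gave 2546 higher and 1658 lower, with a median of 0.05. The 9 cardiac muscle markers were high in every library, at summed FPKM of 8713 and 9189 in aged hearts and 11214 and 10823 in young hearts. Of these 4 fell, Myl2, Myl3, Tnni3 and Tnnt2, and 3 rose, Ryr2, Ttn and Actn2. Without young 1 or young 2 the number called higher was 1, and with FPKM rescaled to one sum 5 rose and 4 fell. Markers of other tissue differed with age too. The 7 atrial muscle markers summed to 4400 and 1674 FPKM in aged hearts and 281 and 287 FPKM in young hearts. The 9 fat cell markers summed to 190 and 194 FPKM in aged hearts and 50.7 and 47.7 FPKM in young hearts, and the 6 mesothelial markers to 24.5 and 23 FPKM in aged hearts and 2.18 and 3.55 FPKM in young hearts. Called higher were 6 of 6 tested atrial, 7 of 8 tested fat and 5 of 6 tested mesothelial markers. Every marker of these 3 lists was above 0 in all libraries except Lep in young 2. The part of these differences in the values below was not tested.

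The receptor transcript was lower in both aged libraries than in both young ones. Aplnr had 1.34 and 1.79 FPKM in aged 1 and aged 2, against 10 and 10.8 FPKM in young 1 and young 2. The lower young library stood 5.6 times above the higher aged one, and the widest pair, young 2 over aged 1, differed 8.06-fold. The means were 1.57 ± 0.319 FPKM in aged hearts and 10.4 ± 0.544 FPKM in young hearts (SD, n = 2 each), and the fitted log2 fold change was -2.79 ± 0.15 (SE), a level in aged hearts of 0.144 times that in young hearts. These values chose the gene, so they are a description and carry no test. Ages that do not overlap are common here, since the FPKM values of both ages lay apart in 72.5% of tested genes. The estimated counts behind the values were 297 and 369 in aged hearts and 2152 and 2801 in young hearts. Their exact Poisson 95% intervals were 264 to 333 and 332 to 409 in aged hearts, and 2062 to 2245 and 2698 to 2907 in young hearts, which cover counting error only. In bulk RNA, fewer cells that make a transcript and less of it per cell cannot be told apart.

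Within the transcriptome the receptor changed place. Aplnr stood at or above 10.6% and 16.4% of the tested genes by FPKM in the aged libraries, and at or above 76.1% and 78.1% of them in the young libraries. Its fitted fall was rank 1 of the 5549 genes with a mean of at least 5 FPKM, which is the sense in which it was chosen. The next in that order were the pseudogene Ifi203-ps at a log2 fold change of -2.02 ± 0.20 (SE), the miRNA precursor Mir6999 at -1.96 ± 0.43, the transcription factor gene Tcf15 at -1.80 ± 0.13, 5430431A17Rik at -1.71 ± 0.12 and the endothelial gene Egfl7 at -1.68 ± 0.07. Among all 12027 tested genes its fall was rank 3, behind the predicted genes Gm49749 and Gm28036. Gm49749 had 0.0289 and 0.0028 FPKM in aged hearts against 10.4 and 0.123 FPKM in young hearts, so its place rests on young 1. The fitted fall of Aplnr was between -3.0 and -2.63 when any 1 library was left out.

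**Figure D1:**
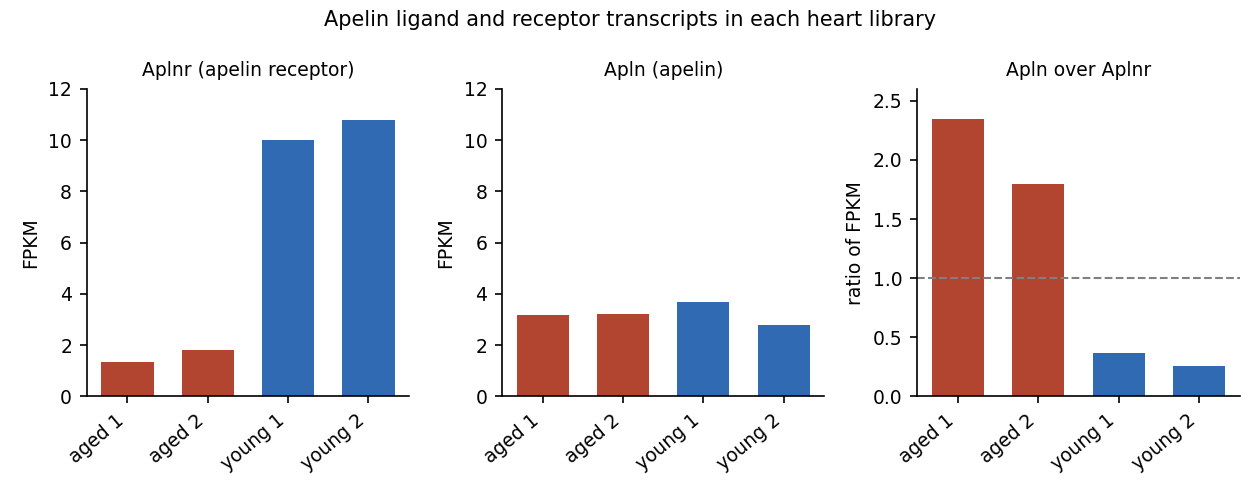
FPKM of Aplnr (left) and Apln (middle), and the ratio of Apln to Aplnr FPKM (right), one bar per library, aged in red and young in blue. The aged bars of Aplnr are at 1.34 and 1.79 FPKM beside 10 and 10.8 FPKM in young hearts, the 4 bars of Apln lie between 2.79 and 3.69 FPKM, and the ratio is above 1 (dashed line) in the aged libraries.

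The aged values of the ligand transcript lay within the range of the young ones. Apln had 3.16 and 3.22 FPKM in aged hearts, against 3.69 and 2.79 FPKM in young hearts. The means were 3.19 ± 0.0449 FPKM in aged hearts and 3.24 ± 0.632 FPKM in young hearts (SD, n = 2 each). The fitted log2 fold change was -0.08 ± 0.17 (SE), at 595 and 564 estimated counts in aged hearts and 673 and 616 in young hearts. It was 0.14 without young 1 and -0.27 without young 2, so its sign rests on which young library is kept, and it was 0.10 with FPKM rescaled to one sum. The fitted value of Apln is smaller than its SE, so it cannot be told apart from 0. With n = 2 a small difference in either direction is not excluded.

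The order of ligand and receptor within a library differed between the ages. Apln stood above Aplnr in both aged libraries, at 2.35 and 1.8 times its FPKM, and below it in both young libraries, at 0.367 and 0.258 times. The 2 transcripts together summed to 4.5 and 5.02 FPKM in aged hearts and to 13.7 and 13.6 FPKM in young hearts. Both values are per length and per library, so the ratio does not depend on how libraries are scaled to each other.

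Aplnr is known as an endothelial gene, and endothelial transcripts as a group were lower in aged hearts. All 25 genes of the pan-endothelial list were called lower, with log2 fold changes of -1.68 to -0.46 and a median of -1.01, beside a median of 0.01 over all tested genes. The number called was 18 without young 1 and 21 without young 2. Cdh5, the cadherin of endothelial junctions, had 32.0 and 33.9 FPKM in aged hearts against 72.0 and 71.3 FPKM in young hearts, a log2 fold change of -1.18 ± 0.07 (SE). Kdr, the main receptor for vascular endothelial growth factor, had 17.6 and 17.9 FPKM in aged hearts against 38.1 and 43.0 FPKM in young hearts (-1.25 ± 0.09). Tie1, a receptor tyrosine kinase (-1.24 ± 0.08), and Sox18, a transcription factor (-1.05 ± 0.07), fell as well. Pecam1, an adhesion molecule, had 34.2 and 30.0 FPKM in aged hearts against 45.1 and 43.7 FPKM in young hearts (-0.53 ± 0.10, edgeR adjusted p = 0.0092), and was not called without young 1 (adjusted p = 0.0741) or young 2 (adjusted p = 0.0575).

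The level of the receptor was also set against these genes, as a description with no test, since the choice of the gene with the largest fall fixes that its ratio to any gene that fell less is lower in aged hearts. The geometric mean FPKM of the 25 genes was 9.81 and 9.69 in aged hearts and 18.8 and 18.1 in young hearts. Aplnr was 13.7% and 18.5% of it in aged hearts and 53.5% and 59.6% in young hearts, a log2 difference of -1.83. As a share of Cdh5 it was 4.2% and 5.3% in aged hearts and 14.0% and 15.2% in young hearts, and as a share of Pecam1 3.92% and 5.98% in aged hearts and 22.3% and 24.7% in young hearts. The log2 difference of the ratio ran from -2.34 against S1pr1 to -1.12 against Egfl7 over the 25 genes, and its sign follows from the choice of Aplnr. No tested gene of the lists given here had a larger fitted fall than Aplnr, for the same reason. Apln was higher relative to the same mean, at 32.2% and 33.2% of it in aged hearts, against 19.6% and 15.4% in young hearts. This follows from the lower mean in aged hearts, since the fitted change of Apln itself was -0.08 ± 0.17 (SE).

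**Figure D2:**
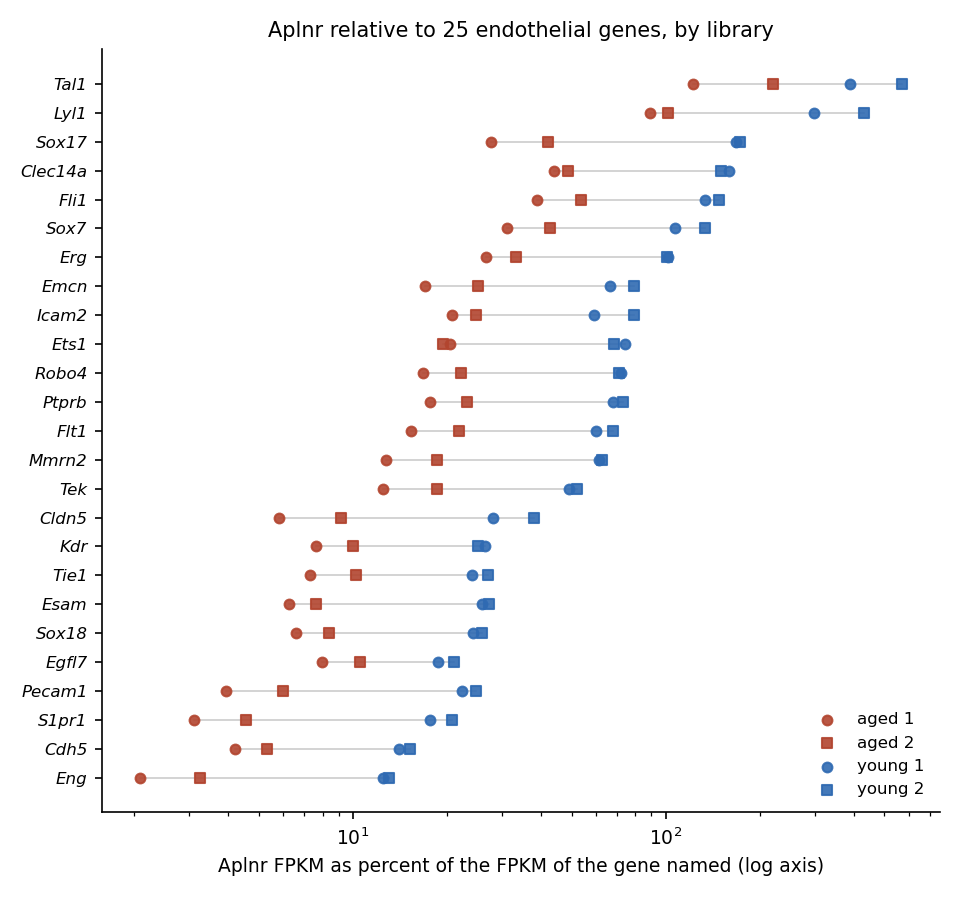
Aplnr FPKM as a percent of the FPKM of each of 25 pan-endothelial genes on a log axis, aged libraries in red and young in blue (circles replicate 1, squares replicate 2). In each row both aged points lie left of both young points, as for Cdh5, with 4.2% and 5.3% in aged hearts and 14.0% and 15.2% in young hearts.

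Markers of each kind of vessel were read separately. Of the 13 tested capillary markers 11 fell (84.6%) and 1 rose (7.69%), beside 17.5% and 20.1% of all tested genes. Their median log2 fold change was -0.99, and the number called lower was the same whichever library was left out. Tcf15, a transcription factor of heart capillaries, had 6.57 and 6.41 FPKM in aged hearts against 23.4 and 20.2 FPKM in young hearts, and Btnl9 (-1.39 ± 0.11, SE) and Cd300lg (-1.04 ± 0.07) fell with it. The capillary gene that rose was Cd36, a fatty acid transporter that muscle and fat cells also make, with 443 and 424 FPKM in aged hearts and 338 and 357 FPKM in young hearts (0.26 ± 0.07, edgeR adjusted p = 0.0354), and it was not called without aged 1, young 1 or young 2 or with upper-quartile scaling. The summed FPKM of the 14 capillary markers, which Cd36 and other abundant genes dominate, was 1101 and 1126 in aged hearts and 1273 and 1297 in young hearts.

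Of the 14 tested arterial markers 11 fell (78.6%), beside 17.5% of all tested genes, with a median of -0.64. Without young 1 the count was 5. Dll4, a Notch ligand of arteries and sprouting tips, had 3.58 and 3.36 FPKM in aged hearts against 12.0 and 8.75 FPKM in young hearts (-1.64 ± 0.16, SE), and the arterial ephrin gene Efnb2 had 3.05 and 3.04 FPKM in aged hearts against 6.18 and 7.1 FPKM in young hearts (-1.18 ± 0.10). Notch4, a Notch receptor, fell as well (-0.84 ± 0.08). Of the 16 tested tip cell genes, a class in which Apln itself is a known marker, 8 fell (50%), with a median of -0.41. The count was 5 without young 1 and 3 without young 2. Pdgfb, the growth factor with which tip cells recruit pericytes, had 9.3 and 9.15 FPKM in aged hearts against 19.0 and 19.1 FPKM in young hearts (-1.10 ± 0.07). Angpt2, another tip gene, had 1.63 and 1.71 FPKM in aged hearts and 1.36 and 2.0 FPKM in young hearts and did not pass the test.

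Venous markers were called in both directions. Of the 7 tested, 3 rose (42.9%) and 2 fell (28.6%), beside 20.1% and 17.5% of all tested genes, with a median of -0.22. The summed FPKM of the venous markers was 52.9 and 43.2 in aged hearts and 46 and 42.8 in young hearts. Vcam1, a leukocyte adhesion molecule, had 4.23 and 4.33 FPKM in aged hearts against 2.5 and 2.23 FPKM in young hearts (0.80 ± 0.09, SE). Vwf, the clotting protein gene, had 8.19 and 7.44 FPKM in aged hearts against 5.73 and 4.46 FPKM in young hearts (0.56 ± 0.13, edgeR adjusted p = 0.022), and was not called without young 2 (adjusted p = 0.0896). Nrp2 (-0.83 ± 0.07), a co-receptor, and Ephb4 (-0.59 ± 0.08), the venous partner of Efnb2, fell. The number of venous markers called higher was 2 without aged 1 or young 1 and 1 without young 2, and limma on log2(FPKM + 1) called 2 higher and 3 lower. The 7 tested lymphatic markers gave 3 higher (42.9%) and 1 lower (14.3%) with a median of 0.22, led by Lyve1 (1.03 ± 0.12). The lymphatic markers Prox1, Nts and Ccl21a were not called. The 6 tested endocardial markers gave 2 higher (33.3%) and 1 lower (16.7%) with a median of 0.13. Bmp6 was the one that fell (-0.59 ± 0.12). Flt4, a growth factor receptor, was the lymphatic marker that fell. Without young 2 the lymphatic counts were 1 higher and 0 lower, and with FPKM rescaled to one sum they were 3 and 0. Neither endocardial marker that rose was called without aged 1 or under limma on log2(FPKM + 1), 1 of them was called with any other single library left out or with upper-quartile scaling, and Bmp6 was not called without young 1.

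**Figure D3:**
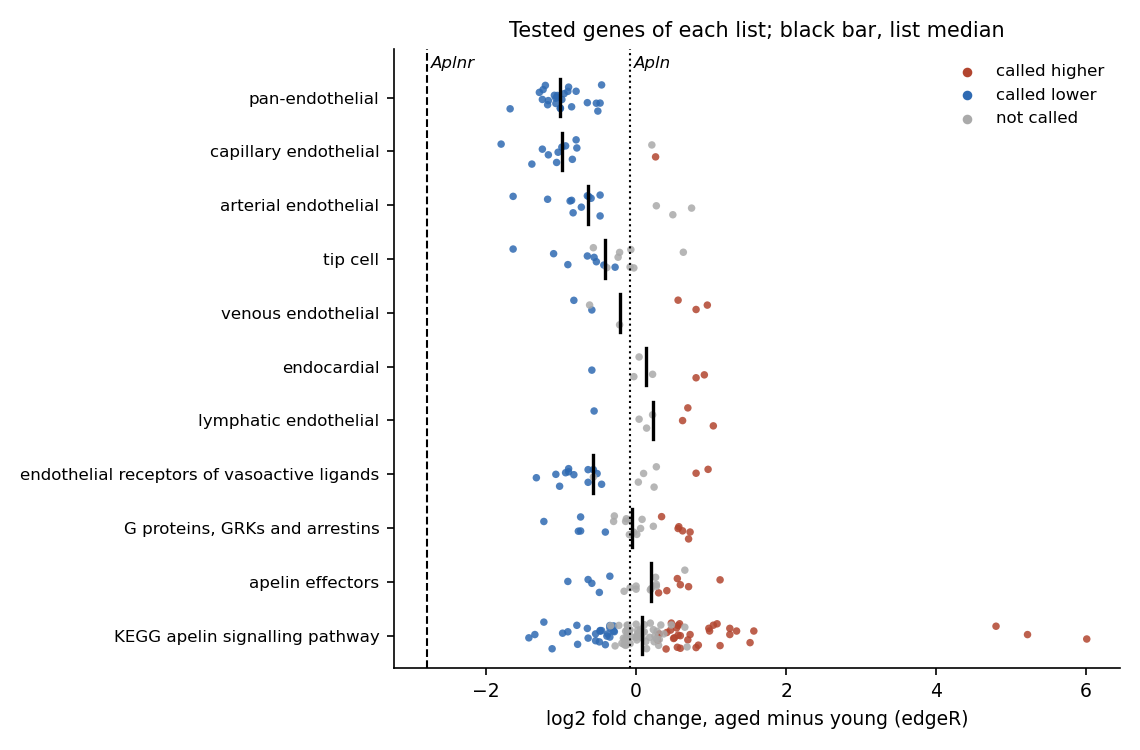
log2 fold change, aged minus young, of the tested genes of 11 lists (points; called higher in red, called lower in blue, not called in grey), with each list's median as a black bar and Aplnr (dashed line) and Apln (dotted line) for scale. All 25 pan-endothelial points are blue and lie right of the Aplnr line, and the venous, endocardial and lymphatic points lie on both sides of 0.

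Other receptors for peptides and vasoactive ligands were compared, from a list drawn up as endothelial receptors. Its S1pr1 is also on the pan-endothelial list, so the counts do not stand for vasoactive receptors in general. Of 24 listed, 19 were tested. Of these 12 fell (63.2%) and 2 rose (10.5%), beside 17.5% and 20.1% of all tested genes. The median log2 fold change was -0.57. The count lower was 9 to 13 with 1 library left out, and 1 was called higher without young 1 or young 2. Adora2a, an adenosine receptor, had 1.8 and 2.4 FPKM in aged hearts against 5.11 and 5.01 FPKM in young hearts (-1.33 ± 0.16, SE). The orphan adhesion receptors Adgrl4 (-1.02 ± 0.09) and Adgrf5 (-0.90 ± 0.08) fell, and so did Ednrb, the endothelial receptor for endothelin (-0.64 ± 0.09). Calcrl, the receptor that adrenomedullin uses, had 5.11 and 4.4 FPKM in aged hearts against 6.77 and 7.46 FPKM in young hearts (-0.64 ± 0.11, edgeR adjusted p = 0.00814), and was not called without young 2 (adjusted p = 0.0515).

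The receptors that rose were Ednra and Npr3. Ednra, the endothelin receptor that smooth muscle carries, had 11 and 10.4 FPKM in aged hearts against 5.07 and 5.57 FPKM in young hearts (0.96 ± 0.09, SE). Npr3, a clearance receptor for natriuretic peptides, had 5.1 and 3.26 FPKM in aged hearts against 2.63 and 2.01 FPKM in young hearts (0.80 ± 0.24, edgeR adjusted p = 0.0444), and was not called without aged 1 (adjusted p = 0.0946), young 1 (adjusted p = 0.0743) or young 2 (adjusted p = 0.194), or under limma on log2(FPKM + 1). Agtr1a, the angiotensin receptor that Aplnr resembles, had 7.32 and 9.38 FPKM in aged hearts and 6.27 and 7.0 FPKM in young hearts. Ackr3, a chemokine scavenger that also binds adrenomedullin, had 25 and 21.9 FPKM in aged hearts and 23.1 and 18.9 FPKM in young hearts. Neither passed the test.

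Of the 7 tested ligands of these receptors 2 rose (28.6%) and 1 fell (14.3%), near the 20.1% and 17.5% of all tested genes. Their median was -0.01. Cxcl12, the chemokine of arterial endothelium and stroma, had 23.0 and 21.9 FPKM in aged hearts against 37.5 and 41.7 FPKM in young hearts (-0.88 ± 0.09, SE). Agt, the precursor of angiotensin, had 5.71 and 6.23 FPKM in aged hearts against 3.36 and 3.15 FPKM in young hearts (0.81 ± 0.13, edgeR adjusted p = 0.00594), and was not called without young 2 (adjusted p = 0.0507). Nppa, the atrial natriuretic peptide gene, which is also one of the atrial markers above, had 3101 and 972 FPKM in aged hearts against 240 and 275 FPKM in young hearts (2.93 ± 0.52). Its value was 1.82 without aged 1 and 3.55 without aged 2, and it was not called without young 1 (adjusted p = 0.0581). One ligand was called higher without young 1 or young 2. In the angiotensin system, which opposes apelin in the vessel wall, 3 of 6 tested genes rose (50%), beside 20.1% of all tested genes. Their median was 0.28, and Agt and the angiotensin-degrading aminopeptidase gene Lnpep (0.48 ± 0.07) were among those that rose. Fewer of them were called without young 1 or young 2.

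Few enzymes that make or break apelin were well expressed. Of 9 with a table entry, 4 reached the minimum. Of these 1 rose (25%) and 1 fell (25%), near the 20.1% and 17.5% of all tested genes. Furin, a proprotein convertase that cuts the apelin precursor, had 11.2 and 10.7 FPKM in aged hearts against 5.99 and 6.02 FPKM in young hearts, a log2 fold change of 0.81 ± 0.07 (SE). Prcp, a carboxypeptidase that removes the last residue of apelin, had 2.15 and 2.47 FPKM in aged hearts against 2.79 and 3.1 FPKM in young hearts (-0.41 ± 0.13, edgeR adjusted p = 0.0472). Prcp was not called without aged 1 (adjusted p = 0.113), young 1 (adjusted p = 0.0861) or young 2 (adjusted p = 0.194), with scaling by library total alone, or under limma. The convertases Pcsk6, with 11 and 12.2 FPKM in aged hearts and 12.0 and 10.6 FPKM in young hearts, and Pcsk7, with 4.18 and 4.23 FPKM in aged hearts and 4.0 and 3.88 FPKM in young hearts, did not pass the test.

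Mme, neprilysin, a protease that cuts apelin within its active part, was under the minimum. It had 0.781 and 0.706 FPKM in aged hearts and 0.439 and 0.346 FPKM in young hearts. With the minimum set at 0.1 FPKM it was called higher by edgeR, at a log2 fold change of 0.89 ± 0.19 (SE, adjusted p = 0.0205).

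All 22 listed genes that carry the receptor's signal through the membrane, for G proteins, receptor kinases, arrestins and RGS proteins, were tested. Of these 6 rose (27.3%) and 5 fell (22.7%), near the 20.1% and 17.5% of all tested genes, and the median was -0.05. Gng11, a gamma subunit of G proteins, had 12.5 and 13.4 FPKM in aged hearts against 30.7 and 27.5 FPKM in young hearts (-1.23 ± 0.11, SE). Rgs3, Rgs4 and Rgs5, which speed the switching off of G proteins, fell by 0.74 ± 0.08, 0.74 ± 0.09 and 0.77 ± 0.09 on the log2 scale, Rgs5 with 96.7 and 103 FPKM in aged hearts against 153 and 175 FPKM in young hearts. The RGS genes did not all fall. Rgs2 was called higher, with 7.11 and 8.23 FPKM in aged hearts against 5.79 and 5.84 FPKM in young hearts, and was named after its values were seen. Rgs5 is also a pericyte marker, and the 9 markers of pericytes and smooth muscle gave 4 lower and 2 higher calls, with 1 higher without young 1 and 3 higher without either aged library. Gnb2, a beta subunit, fell as well (-0.41 ± 0.07) and was not called without young 1 or young 2.

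Gna12, an alpha subunit with 37.5 and 34.7 FPKM in aged hearts against 21.8 and 23.4 FPKM in young hearts (0.62 ± 0.08, SE), and Grk5, a kinase that desensitizes receptors in heart muscle, with 11.8 and 11 FPKM in aged hearts against 6.0 and 7.26 FPKM in young hearts (0.72 ± 0.11), were among those that rose. They were named after their values were seen. The inhibitory alpha subunit Gnai2, to which the receptor couples, had 56.5 and 62.0 FPKM in aged hearts and 58.5 and 61.8 FPKM in young hearts. Gnai1, with 3.23 and 3.31 FPKM in aged hearts against 2.17 and 2.09 FPKM in young hearts, was called higher. So was the related Gnao1, with 6.76 and 4.83 FPKM in aged hearts against 3.53 and 3.33 FPKM in young hearts. Gnai3, with 10.2 and 11.7 FPKM in aged hearts and 10.6 and 12.5 FPKM in young hearts, was not called. Gnai1, Gnai3 and Gnao1 were likewise named after their values were seen. The arrestin genes Arrb1, with 4.42 and 3.98 FPKM in aged hearts and 3.6 and 3.29 FPKM in young hearts, and Arrb2, with 3.71 and 4.03 FPKM in aged hearts and 4.97 and 4.23 FPKM in young hearts, did not pass the test, nor did Gnai2. Without young 1 or young 2, the number of the 22 genes called higher was 2.

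Among 21 genes on which apelin is known to act, all tested, 6 rose (28.6%) and 5 fell (23.8%), near the 20.1% and 17.5% of all tested genes, with a median of 0.20. Nos3, the endothelial nitric oxide synthase, had 11.8 and 10.2 FPKM in aged hearts against 16.4 and 16.5 FPKM in young hearts (-0.64 ± 0.10, SE). Klf2, an endothelial transcription factor that responds to flow, had 28.7 and 24.2 FPKM in aged hearts against 60.4 and 34.9 FPKM in young hearts (-0.91 ± 0.25, edgeR adjusted p = 0.0352). It was not called by DESeq2 or limma or without aged 2 (adjusted p = 0.0626), and without young 1 the value was -0.45 (adjusted p = 0.0903). Its partner Klf4 fell (-0.59 ± 0.09). The kinase gene Mapk3, which encodes ERK1, had 23.2 and 24.3 FPKM in aged hearts against 33.4 and 30.7 FPKM in young hearts (-0.49 ± 0.08).

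Prkaa2, the catalytic subunit of AMP-activated kinase that muscle uses, led the effectors that rose, with 16.5 and 15.5 FPKM in aged hearts against 6.8 and 7.36 FPKM in young hearts (1.12 ± 0.08, SE). The forkhead gene Foxo3, whose protein the kinase Akt keeps out of the nucleus, had 11.5 and 11.1 FPKM in aged hearts against 6.44 and 6.9 FPKM in young hearts (0.70 ± 0.07). The number of effectors called higher was 9 without aged 2 and 4 without young 1 or young 2, and 3 were called lower without young 1. With FPKM rescaled to one sum 9 rose and 3 fell. The histone deacetylase gene Hdac5, an effector of apelin in endothelium, was the remaining one called lower.

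The table's own KEGG annotation places 130 other genes in the apelin signalling pathway, of which 106 were tested. Of these 33 rose (31.1%) and 25 fell (23.6%), beside 20.1% and 17.5% of all tested genes, with a median of 0.08. Without young 1 the counts were 19 and 13, and without young 2 they were 20 and 13. With FPKM rescaled to one sum they were 42 and 10. Genes that fell included Nos2, the inducible nitric oxide synthase, with 1.53 and 1.5 FPKM in aged hearts against 3.89 and 3.97 FPKM in young hearts (-1.43 ± 0.12, SE), and Pik3r6, a regulatory subunit of phosphoinositide 3-kinase gamma (-1.35 ± 0.12). Adcy4, an adenylyl cyclase, had 6.64 and 7.23 FPKM in aged hearts against 10.9 and 12.0 FPKM in young hearts (-0.78 ± 0.08).

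The pathway holds muscle, atrial and fat genes, which were called in both directions. The ventricular light chain genes Myl2, with 1137 and 1380 FPKM in aged hearts against 2425 and 2326 FPKM in young hearts (-0.98 ± 0.09, SE), and Myl3, with 936 and 1026 FPKM in aged hearts against 1681 and 1568 FPKM in young hearts (-0.79 ± 0.07), fell. Ryr2, the calcium release channel of heart muscle, had 49.5 and 44.1 FPKM in aged hearts against 22.2 and 21.8 FPKM in young hearts (1.03 ± 0.09, SE), and Ppargc1a, a coactivator of mitochondrial genes, had 18.2 and 19.8 FPKM in aged hearts against 8.84 and 8.46 FPKM in young hearts (1.08 ± 0.07). Plin1, the lipid droplet coat of fat cells, had 4.16 and 4.38 FPKM in aged hearts against 0.125 and 0.0862 FPKM in young hearts (5.22 ± 0.21). The atrial light chain gene Myl4 had 168 and 90.3 FPKM in aged hearts against 6.96 and 1.97 FPKM in young hearts (4.80 ± 0.67), and its value was 5.98 without young 1 and 4.15 without young 2. Plin1 and Myl4 belong to the fat and atrial markers given above, and the part of such tissue in the pathway's count was not tested.

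**Figure D4:**
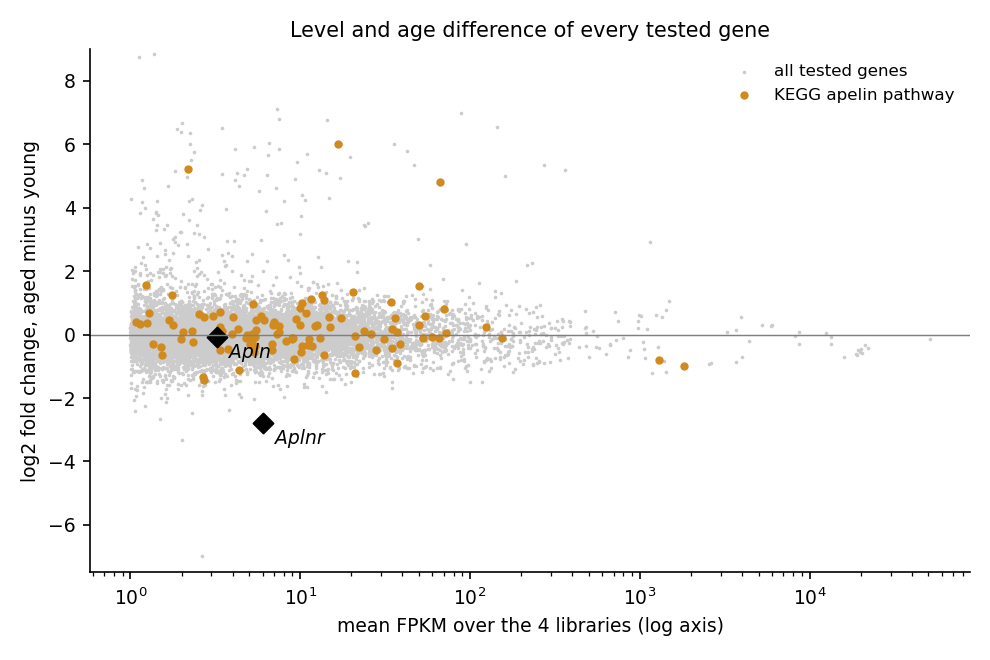
Mean FPKM over the 4 libraries (log axis) against the log2 fold change, aged minus young, for the 12027 tested genes (grey), the 106 tested genes of the KEGG apelin signalling pathway (orange) and the members Aplnr and Apln (black diamonds). Aplnr, at a mean of 6 FPKM, lies at -2.79, below all pathway genes, and Apln lies near the zero line at -0.08.

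Apln is known to respond to low oxygen through the hypoxia-inducible factors, so genes with the same response were read beside it. Of 19 tested, 8 rose (42.1%) and 4 fell (21.1%), beside 20.1% and 17.5% of all tested genes, with a median of 0.23. Without young 1 the counts were 4 and 3, and without young 2 they were 4 and 1. They were 13 and 3 with FPKM rescaled to one sum and 5 and 5 with upper-quartile scaling. Vegfa, the main endothelial growth factor, had 58.2 and 55.9 FPKM in aged hearts against 96.4 and 109 FPKM in young hearts (-0.90 ± 0.09, SE), while Pdk1, a kinase that holds back pyruvate oxidation, had 18.3 and 14.2 FPKM in aged hearts against 6.57 and 7.21 FPKM in young hearts (1.18 ± 0.14). Pfkfb3, a regulator of glycolysis (0.92 ± 0.12), and Egln1, an oxygen sensor (0.59 ± 0.07), rose. Hif1a itself had 12.5 and 12.6 FPKM in aged hearts and 9.21 and 11.5 FPKM in young hearts and did not pass the test. Epas1, the endothelial relative of Hif1a, had 46.1 and 43.9 FPKM in aged hearts against 60.2 and 65.2 FPKM in young hearts (-0.54 ± 0.08), and was not called without young 2 (edgeR adjusted p = 0.0576). Ndrg1 (-0.45 ± 0.07) and Ankrd37 (-1.09 ± 0.28) also fell, and neither was called without young 2, nor Ankrd37 without aged 1 or young 1. The Apln promoter in the RefSeq table of GRCm38.p6 held neither ACGTG nor GCGTG on either strand, letters found in 19.6% and 32.4% of the 32817 promoters there. That entry spans only chrX:48034804-48035103. No sequence outside it was searched, so the absence does not speak for other parts of the gene.

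The 5 genes whose pattern over the 4 libraries was nearest to that of Aplnr included endothelial genes. Likeness was the Euclidean distance between log2(FPKM + 1) values centred on each gene's mean, over 10737 named genes, and the pattern is mainly the difference between the ages. The nearest was Egfl7, an endothelial secreted protein gene, at a distance of 0.622, with 16.9 and 17.1 FPKM in aged hearts against 53.8 and 51.3 FPKM in young hearts. Tcf15 followed at 0.629. Hlx, a homeobox transcription factor gene, was at 0.668, with 1.65 and 2.11 FPKM in aged hearts against 6.85 and 7.32 FPKM in young hearts (-1.97 ± 0.15, SE). Slc26a10, of an anion transporter family, was at 0.734, with 4.9 and 5.59 FPKM in aged hearts against 16.5 and 15.4 FPKM in young hearts (-1.66 ± 0.09). Mhrt, a long noncoding RNA transcribed antisense to the Myh7 gene, was at 0.744, with 51.8 and 56.1 FPKM in aged hearts against 142 and 151 FPKM in young hearts (-1.50 ± 0.08). The strand setting of the counting is not given in the sources used here, so reads of Mhrt and its antisense partner may not be apart. With a pseudocount of 0.1 FPKM, 2 of these 5 genes remained, Hlx and Tcf15.

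**Figure D5:**
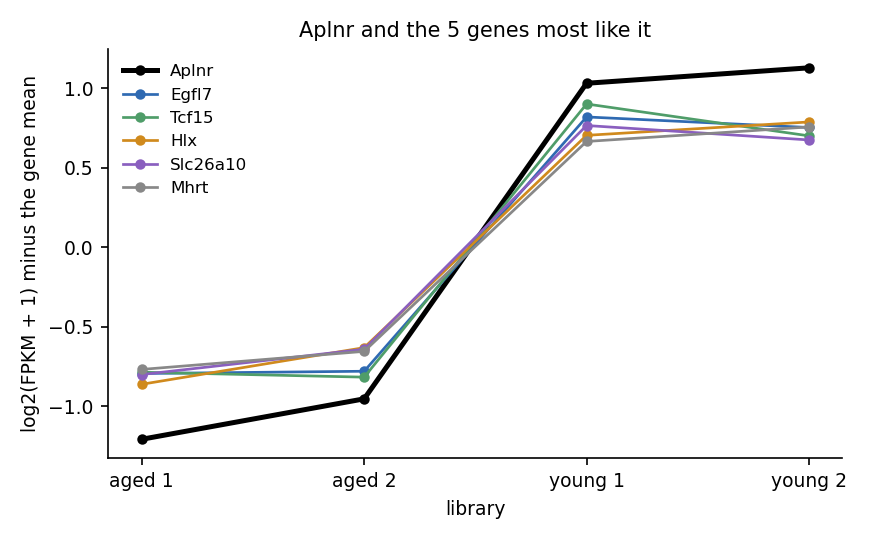
log2(FPKM + 1) minus the gene's mean in each library for Aplnr (black) and the 5 genes nearest to it. All 6 lines lie below 0 in the aged libraries and above 0 in the young libraries, and the Aplnr line spans the widest range.

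The genes most like Apln had patterns as flat as its own. They were Dusp28 at a distance of 0.03, Cmtm5 at 0.047, Dnajc4 at 0.0503, P2ry6 at 0.0543 and Zfp606 at 0.0547. Dusp28, for one, had 6.58 and 6.56 FPKM in aged hearts and 7.37 and 5.93 FPKM in young hearts, with the same order of young 1 over young 2 as Apln.

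Of the genes beside Aplnr on the chromosome only Tnks1bp1 was expressed well enough to be tested. Lrrc55, 22410 bases away, had 0.0542 and 0.107 FPKM in aged hearts and 0.232 and 0.0557 FPKM in young hearts, and 4930443O20Rik, 49763 bases away on the other side, had 0 and 0.0947 FPKM in aged hearts and 0.157 and 0.125 FPKM in young hearts, from 0 and 8 estimated counts in aged hearts and 14 and 13 in young hearts. Such low counts neither show nor exclude a fall. Tnks1bp1, 63176 bases away, had 7.14 and 6.73 FPKM in aged hearts against 9.72 and 10.7 FPKM in young hearts (-0.62 ± 0.08, SE). Beside Apln, Ocrl had 2.62 and 2.8 FPKM in aged hearts against 1.89 and 2.18 FPKM in young hearts (0.35 ± 0.10, edgeR adjusted p = 0.0391), and was not called when any 1 library was left out. Xpnpep2, an aminopeptidase gene on the other side, had 0.273 and 0.413 FPKM in aged hearts and 0.0452 and 0.0956 FPKM in young hearts, under the minimum. With the minimum set at 0.1 FPKM, edgeR called Xpnpep2 higher, at a log2 fold change of 2.23 ± 0.51 (SE, adjusted p = 0.0257). Its estimated counts were low, at 80 and 113 in aged hearts and 13 and 33 in young hearts.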

How the data were processed

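Poly(A) RNA of 4 mouse heart libraries was read in pairs after dUTP strand marking, per the labels' protocols. Per the file headers, the authors deposited an FPKM value and an estimated count per gene and library. Per the submitters' processing notes the build was GRCm38 and the tools included StringTie 2.1.6, HISAT2 2.2.1 and cutadapt 1.9. Their roles and settings, and how multiply mapped reads were treated, are not stated in the sources read.

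The estimated counts, whole numbers in the file, were fitted with edgeR 4.0.16 in R 4.3.3 (TMM scaling, intercept and age, quasi-likelihood test, 2 residual degrees of freedom) over the 12027 genes with a mean of at least 1 FPKM, with Benjamini-Hochberg adjusted p below 0.05. Members and gene lists were chosen with earlier results of these data known. List counts are members that passed this test of all genes. An exact permutation test of 2 against 2 libraries cannot go below p = 0.333, so none was used. Genes were named by rule: up to 4 of each list with the smallest p, members called against the majority of a short list, neighbours, the most alike genes and a few check genes. DESeq2 1.42.0, limma 3.58.1, other scalings and minimums, and leaving out each library were the alternatives. The procedure was tested on simulated data. Intervals and floors cover counting error only. Sequences came from the GENCODE transcripts and the RefSeq promoter table, which held Apln and not Aplnr.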

Additional observations from a re-analysis of the deposited data

How the results depend on the processing

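The directions of Aplnr and of the 70 other genes given with a fold change at the minimum of 1 FPKM were the same under every alternative run, and 66 of their 1175 recomputed values lost the call. Aplnr was between -2.84 and -2.67 on the log2 scale under every count-based setting and under limma with 0.1 FPKM added, and was -2.16 under limma on log2(FPKM + 1) and -2.05 with FPKM rescaled to one sum as well, where the added 1 FPKM understates changes of low genes. Leaving out 1 library gave -3.0 to -2.63 for Aplnr and -0.27 to 0.14 for Apln. Relative to Pecam1 in place of the endothelial mean, Aplnr was -2.28, and without 1 library it was -2.05 to -1.61 relative to the mean.

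The number of genes called higher was 2416, and it was 1469 with a minimum of 5 FPKM, 3797 with FPKM rescaled to one sum and 1187 to 2514 without 1 library. The number called lower was 2104, and it was 1095 with rescaled FPKM and 890 to 2144 without 1 library. For the KEGG apelin pathway, 19 to 35 genes were called higher and 13 to 24 lower without 1 library, and 16 were called lower with no minimum and 10 with rescaled FPKM. With a pseudocount of 0.1 FPKM, 2 of the 5 genes most like Aplnr remained. The cause of these shifts was not tested. No paired analysis was possible because the titles number the libraries 5 and 6 in aged hearts and 4 and 5 in young hearts, so the groups share 1 number. A fit without 1 library leaves 1 at that age, which is assumed to vary like the others.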
